A study of Mus musculus with 21 samples.

Results

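Left ventricular RNA of R403Q mice was compared with that of wild-type mice while both genotypes ate a diet with empagliflozin (EMPA). The comparison took every mouse labelled with the EMPA diet, 4 R403Q-EMPA mice and 5 WT-EMPA mice, which are 9 of the 21 mice sequenced, and it covered all genes with enough counts to be tested, 17309 of 55450. The other 12 mice ate the same chow without the drug (control diet, CD; 5 WT-CD and 7 R403Q-CD mice). No EMPA mouse was also a CD mouse, so the genotype difference on CD was measured in other animals. The RNA sequencing results of the published study do not cover the WT-EMPA mice.

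All mice were males of the strain 129S6/SvEv. The labels give the mutant genotype as Myh6+/R404Q and call it R403Q, so each mutant kept a wild-type copy of Myh6, and the wild-type animals were their littermates. The EMPA diet held 0.15 mg of empagliflozin per g of chow, about 15 mg per kg of body weight. The study's methods give an age of 12 weeks and 2 weeks of treatment for this experiment, whereas the labels give 16 weeks of treatment. The allele is a germline change in Myh6 itself, so all cells carry it, and those that use the gene's own promoter express it. The animals model males of 1 inbred strain. The 3 WT-EMPA mice numbered 1 to 3 carry the same cage label, which no sequenced mutant has, and the remaining mice carry 2 cage labels, each with 1 WT-EMPA and 2 R403Q-EMPA mice.

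Myh6 encodes the α-myosin heavy chain, the main motor of the adult mouse ventricle. In humans, the R403Q change in the myosin gene MYH7 is a classic cause of hypertrophic cardiomyopathy. Empagliflozin blocks the sodium-glucose cotransporter SGLT2, which the kidney uses to take back glucose, so that glucose is lost in urine and fatty acids and ketone bodies supply more of the body's fuel. Hypertrophic hearts are known for raised natriuretic peptides and matrix genes, for activated fibroblasts and macrophages, and for lower expression of genes for oxidative metabolism and ion channels.

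The 9 libraries held 23491535 to 36673833 counts (median 35445239), at which 3 counts amount to between 0.0818 and 0.128 CPM. CPM is a gene's count per megaread of the library total, after scaling between libraries by the TMM method. Spearman correlations of counts between pairs of these mice ran from 0.986 to 0.994, and each mouse gave 1 library. The 6 cardiomyocyte markers summed to between 67519 and 92565 CPM. The atrial markers summed to between 23.1 and 109 CPM, and the skeletal muscle myosins Myh1, Myh2 and Myh4 each stayed at or under 3 counts in every library. On the first principal component of the 9 mice, which held 23.8% of the variance, the WT-EMPA mice lay between -35.1 and -1.47 and the R403Q-EMPA mice between -0.497 and 28.2. Among the 21 mice, R403Q-CD 2 stood apart (median Spearman correlation with the other mice 0.968, the lowest). That mouse enters the estimate of the spread shared by all 4 groups, and values without it are given beside the genes described in detail where this changes a call.

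Between R403Q-EMPA and WT-EMPA mice, 10 genes passed the test (edgeR quasi-likelihood F test, Benjamini-Hochberg adjusted p under 0.05), 0.0578% of those tested. Of these, 6 (0.0347%) rose in R403Q: Ftl1, its near-identical copy Ftl1-ps1, the long non-coding RNA Gm35330, Sept6, Epdr1 and Cd300ld. The 4 (0.0231%) that fell were Hif3a, Chrm2, the long non-coding RNA E230013L22Rik and Jade2. In all 10 genes the values of the genotypes did not overlap, against 6.77% of all tested genes, and the absolute log2 fold changes lay between 0.41 and 1.39. At an unadjusted p under 0.05 there were 2544 genes (14.7%), with a positive difference in 1409 (8.14%) and a negative one in 1135 (6.56%). When R403Q-CD 2 was left out of the fit, an alternative chosen after seeing the data, 201 genes passed (1.17%), 108 higher (0.629%) and 93 lower (0.541%), with all 10 among them. The 9 mice fitted alone gave 123 genes (0.739%; 0.403% higher and 0.337% lower) and DESeq2 gave 304 (1.94%; 0.909% higher and 1.04% lower), again with all 10 among them. With scaling to library size alone 13 passed, 10 higher and 3 lower, with 9 of the 10 among them (Jade2 did not pass, adjusted p = 0.0812, edgeR), and DESeq2's split was 142 higher and 162 lower. Leaving out 1 EMPA mouse at a time gave between 1 gene, without R403Q-EMPA 1, and 64, without WT-EMPA 3.

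Ftl1, which encodes the ferritin light chain of the shell in which cells store iron, had the smallest p-value. Its level was 129, 116, 124, 111 and 114 CPM in WT-EMPA mice 1 to 5 and 193, 154, 188 and 194 CPM in R403Q-EMPA mice 1 to 4. Every R403Q value lay above every wild-type value, and R403Q-EMPA 2 was the lowest of the mutants. The log2 fold change was 0.62 (SE 0.08, adjusted p = 0.00126, edgeR). Ftl1 lies at chr7:45457944-45459884 on the minus strand of GRCm38.

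Ferritin messages carry an iron-responsive element before the start codon, a hairpin that iron regulatory proteins bind when iron is scarce, which blocks translation. The elements of Ftl1, of the annotated copy Ftl1-ps1 and of the heavy chain gene Fth1 are shown because both ferritin chains carry the element, whereas only Ftl1 and its copy passed the test. Capitals mark the search pattern CNNNNNCAGTGN, found on the sense strand before the start codon. In the first 200 bases of the longest coding transcript of each gene in the GRCm38 annotation, it matched in 7.59% of 21822 genes. The windows come from chr7:45459781-45459809 (minus strand), chr13:74406426-74406454 (plus strand) and chr19:9982730-9982758 (plus strand) of GRCm38.
Ftl1: gtgtcttgCTTCAACAGTGTttgaacgga
Ftl1-ps1: gtgtcttgCTTCAACAGTGTttgaacgga
Fth1: gtttcctgCTTCAACAGTGCttgaacgga
Between the end of the Ftl1 window and its start codon lie 149 bases, and for Fth1 111 bases. Fth1, which encodes the ferritin heavy chain, had 2108, 2005, 2160.2, 2166 and 1849 CPM in WT-EMPA mice and 2325, 2016, 2420.2 and 2175 CPM in R403Q-EMPA mice. The ranges overlapped, and its log2 difference was 0.12 (adjusted p = 0.597, edgeR).

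Ftl1-ps1 on chromosome 13 is annotated as a gene of its own, but its 549 coding bases differ from those of Ftl1 at 2 positions, an identity of 99.6%, and the longest identical run of the whole transcripts is 524 bases. The stretch that holds both differences is shown because it is the only coding stretch by which reads of the copies can be told apart, and capitals mark the differing bases. It comes from chr7:45458135-45458211 (minus strand) and chr13:74407051-74407127 (plus strand) of GRCm38, coding bases 448 to 524.
Ftl1: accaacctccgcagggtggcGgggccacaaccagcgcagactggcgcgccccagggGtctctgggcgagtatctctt
Ftl1-ps1: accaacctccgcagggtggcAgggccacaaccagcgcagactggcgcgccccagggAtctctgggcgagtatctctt
Counts of Ftl1-ps1 were 37.3, 36.4, 37.1, 34.5 and 33.1 CPM in WT-EMPA mice and 63.4, 45.6, 59.7 and 55.3 CPM in R403Q-EMPA mice, again without overlap (log2 fold change 0.65, SE 0.09, adjusted p = 0.00489, edgeR). Because unique alignment could divide the reads of the copies unevenly, neither level is certain on its own, and the copies do not count as separate evidence.

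The other genes that rose are less known in the heart. Gm35330, annotated as a long intergenic non-coding RNA on chromosome 13, had 10.9, 10.4, 9.0, 8.43 and 10.9 CPM in WT-EMPA and 18.2, 17.4, 15.8 and 15.3 CPM in R403Q-EMPA mice (log2 fold change 0.75, adjusted p = 0.0132, edgeR). Sept6 encodes a septin, a GTP-binding protein that polymerizes into filaments at membranes and the cytoskeleton. It had 8.81, 11.2, 11.4, 10.01 and 9.77 CPM in WT-EMPA and 15.5, 16, 14 and 15 CPM in R403Q-EMPA mice (log2 fold change 0.56, SE 0.09, adjusted p = 0.0132, edgeR). Epdr1, which encodes an ependymin-related protein of lysosomes, had 17.5, 19.3, 19.2, 21 and 18.2 CPM in WT-EMPA and 26.5, 24.2, 23.3 and 27.3 CPM in R403Q-EMPA mice (log2 fold change 0.41, SE 0.07, adjusted p = 0.0183, edgeR). For these 3 genes the lowest mutant stood above the highest wild type. Cd300ld belongs to the CD300 family of immune receptors of myeloid cells and was the least abundant of the genes that rose. WT-EMPA mice had 0.790, 1.10, 1.10, 1.35 and 0.982 CPM and R403Q-EMPA mice 2.70, 2.63, 3.03 and 2.80 CPM, so that each mutant had more than every wild-type mouse, and the log2 fold change was 1.39 (SE 0.26, adjusted p = 0.0495, edgeR).

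Among the genes that fell, Hif3a encodes a hypoxia-inducible factor subunit whose short forms act against the other HIF proteins. Its level was 24.9, 23.4, 16.6, 18.4 and 24.6 CPM in WT-EMPA and 11.1, 13.6, 13.5 and 13.8 CPM in R403Q-EMPA mice (log2 fold change -0.73, SE 0.12, adjusted p = 0.0183, edgeR), and R403Q-EMPA 1 was the lowest. Chrm2 encodes the M2 muscarinic receptor, through which the vagus nerve slows the heart. WT-EMPA mice had 189, 191, 189, 185 and 231 CPM and R403Q-EMPA mice 131, 130.0, 111 and 155 CPM. WT-EMPA 5 was well above the other wild-type mice, which were close together, and every mutant was below them (log2 fold change -0.58, SE 0.10, adjusted p = 0.0183, edgeR). Jade2, a partner of the HBO1 histone acetyltransferase, had 49.4, 58.2, 46.4, 49.2 and 61.2 CPM in WT-EMPA and 34.6, 40.4, 36.1 and 39.6 CPM in R403Q-EMPA mice (log2 fold change -0.49, SE 0.09, adjusted p = 0.0495, edgeR). E230013L22Rik, annotated as a long non-coding RNA from a bidirectional promoter, has a provisional name and is given because it completes the count of genes that fell. It had 36.2, 28.4, 31.6, 27 and 33.2 CPM in WT-EMPA and 15.5, 24.2, 16.8 and 20.3 CPM in R403Q-EMPA mice (log2 fold change -0.70, adjusted p = 0.0241, edgeR).

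The next 2 lower genes by p-value missed the threshold. Srebf1, which encodes the transcription factor SREBP1 of fatty acid synthesis, had 40.4, 42.1, 51.3, 42.5 and 60.5 CPM in WT-EMPA and 29.5, 29.7, 38.8 and 34.2 CPM in R403Q-EMPA mice (log2 fold change -0.52, adjusted p = 0.0689, edgeR). Kcnj12 encodes an inward rectifier potassium channel that holds the resting potential of ventricular cells, and it had 34.4, 26.7, 34.5, 26.9 and 36.7 CPM in WT-EMPA and 19.1, 25.1, 18.7 and 20.5 CPM in R403Q-EMPA mice (log2 fold change -0.61, adjusted p = 0.0689, edgeR). In both genes all mutants were below all wild types. Without R403Q-CD 2 in the fit, both passed the test (adjusted p = 0.0236 for Srebf1 and 0.0237 for Kcnj12, edgeR).

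**Figure D1:**
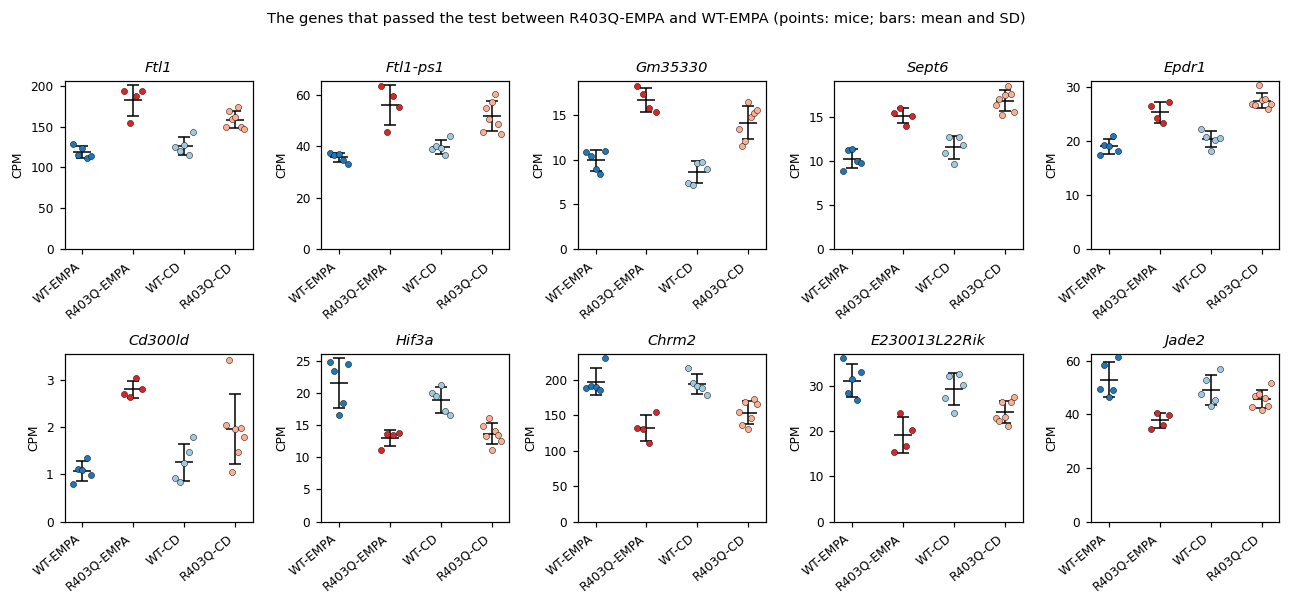
Levels in CPM in every mouse for the 10 genes that passed the test between R403Q-EMPA and WT-EMPA, with the CD groups beside them; points are mice and bars are the mean and SD. In each panel the 4 R403Q-EMPA mice and the 5 WT-EMPA mice occupy ranges that do not overlap.

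Cage and genotype were partly confounded, since 3 of the 5 WT-EMPA mice had a cage label that no sequenced mutant had. The other 2 cages held both genotypes (the mixed cages). The genotypes did not overlap for any of the 10 genes, so their direction within the mixed cages was fixed by that separation and adds nothing to it. The mixed cages held every R403Q-EMPA mouse, so counts of list members by direction within them, given below, are no separate evidence either. The shares over all genes beside those counts include genes of either overall sign. With cage as a factor in the fit of 21 mice, edgeR called 0 genes (1733 at an unadjusted p under 0.05, smallest adjusted p 0.0671). All 10 genes kept their direction there, each with an unadjusted p under 0.05. In the 9 EMPA mice with cage as a factor, 6 genes passed and none of the 10 was among them, although all 10 had an unadjusted p under 0.05 there and log2 differences close to those given above (Ftl1 0.69 against 0.62, Chrm2 -0.66 against -0.58, Gm35330 0.78 against 0.75, Hif3a -0.72 against -0.73). In the 6 mice of the mixed cages alone, with cage as a factor, 75 genes passed, including 6 of the 10. Limma's voom with cage as a random effect in the 9 mice called 110 genes.

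The marker genes of macrophages were higher together in the mutants. Adgre1, Cd68 and Csf1r mark macrophages, the C1q genes encode the complement subunits that resident macrophages make, and the H2 genes and Cd74 belong to antigen presentation by MHC class II. All 12 of these markers were higher in R403Q-EMPA at an unadjusted p under 0.05, where 8.14% of all genes were, and 10 of the 12 had values that did not overlap, against 3.35%. The median log2 difference of the 12 was 0.58, beside 0.0091 over all tested genes. None of the 12 passed the adjusted threshold in the fit of 21 mice, 2 passed in the 9 mice alone (Adgre1 and H2-Ab1), where 0.403% of all genes passed as higher, and 6 passed without R403Q-CD 2, where 0.629% did (Adgre1, Cd68, Csf1r, C1qa, C1qb and C1qc). In bulk tissue, more cells of a type and more RNA per cell cannot be told apart, here and in the results that follow.

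Adgre1, the gene of the macrophage surface protein F4/80, had 9.75, 14.1, 14.7, 11.9 and 12.6 CPM in WT-EMPA and 18.7, 20.9, 18.2 and 17.9 CPM in R403Q-EMPA mice. Every mutant was above every wild type, and the log2 difference was 0.59 (adjusted p = 0.148, and 0.0236 without R403Q-CD 2, edgeR). Cd68, a protein of macrophage lysosomes, had 6.94, 9.53, 9.03, 6.99 and 7.83 CPM in WT-EMPA and 13.7, 16.8, 10.4 and 10.4 CPM in R403Q-EMPA mice (log2 difference 0.67, adjusted p = 0.171, and 0.0405 without R403Q-CD 2, edgeR). Csf1r, the receptor of the growth factor that macrophages depend on, had 41.2, 56.7, 55.5, 44.3 and 43.9 CPM in WT-EMPA and 70.8, 68.5, 61.6 and 68 CPM in R403Q-EMPA mice (log2 difference 0.48, adjusted p = 0.0859, and 0.0262 without R403Q-CD 2, edgeR). Neither gene showed an overlap between genotypes. The C1q genes and H2-Ab1 are named after their values were seen, for their calls in the other fits. C1qa had 29.2, 45.2, 55.6, 51.9 and 48.2 CPM in WT-EMPA and 91.3, 89.8, 63.9 and 67.3 CPM in R403Q-EMPA mice (log2 difference 0.76, adjusted p = 0.0854, and 0.0236 without R403Q-CD 2, edgeR). C1qb and C1qc had log2 differences of 0.77 and 0.67. H2-Ab1, a chain of an MHC class II molecule, had 16.8, 18.4, 18.9, 19.8 and 17.2 CPM in WT-EMPA and 23.5, 25.8, 33.7 and 25.6 CPM in R403Q-EMPA mice (log2 difference 0.58, adjusted p = 0.243, and 0.0345 in the 9 mice alone, edgeR).

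Summed over the 12 markers, the WT-EMPA mice had 394, 569.5, 661, 562 and 537 CPM, and the R403Q-EMPA mice 872, 860.2, 788 and 732 CPM. The sums did not overlap, and WT-EMPA 1 was the lowest of all. Lymphocyte markers, by contrast, summed to no more than 2.15 CPM in any of the 9 mice, with Cd3e and Cd3d differing by -0.79 and 1.22 on the log2 scale, neither of them called. Cd300ld, which passed the test, was higher in the same 4 mice as the macrophage markers, and their part in its result was not tested.

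The 8 fibroblast markers summed to between 2280.3 and 3085 CPM in WT-EMPA and between 3304 and 3723 CPM in R403Q-EMPA mice, with no overlap. All 8 had a positive log2 difference (median 0.45) and were higher in both mixed cages (35.0% of all genes were), 3 had an unadjusted p under 0.05 (8.14% of all genes), and 0 passed in edgeR's fit of 21 mice or in the 9 mice alone. Pdgfra, Tcf21 and Dpt differed by 0.16, 0.34 and 0.55 on the log2 scale. The 6 cardiomyocyte markers summed to between 79122 and 92565 CPM in WT-EMPA and between 67519 and 77084 CPM in R403Q-EMPA mice. These sums did not overlap either, and the mutants were lower. Without Myh6 the other 5 markers summed to 35220 to 42988 CPM in WT-EMPA and 34432 to 45535 CPM in R403Q-EMPA mice, with overlap, and the 6 members differed in sign. Myh6, Actc1 and Tnnt2 differed by -0.38, 0.15 and -0.07, respectively.

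All 8 endothelial markers had a positive difference (median 0.15), and Pecam1, Cdh5 and Kdr differed by 0.24, 0.00 and 0.18, but their sums overlapped (837 to 1037 against 933 to 1238 CPM). Smooth muscle and pericyte markers, split evenly in sign, had sums that also overlapped, and Myh11, Acta2 and Tagln differed by -0.51, 0.14 and -0.32, with Acta2 at -0.20 without R403Q-EMPA 2. Erythroid markers overlapped in their sums, and Hba-a1, Hba-a2 and Hbb-bs differed by 0.26, 0.42 and 0.26. The sums of adipocyte markers overlapped, but R403Q-EMPA 1 reached 25.7 CPM, where the other mutants had at most 7.11 CPM, and Adipoq, Plin1 and Cidec differed by 1.25, 0.18 and 0.48 (median of the 6 markers 0.70, all positive). Without R403Q-EMPA 1 the difference of Adipoq was 0.25, and within the mixed cages 1 of the 6 was higher in both and 3 were lower in both. Atrial markers (-0.58, -1.46 and -1.61 for Myl4, Myl7 and Sln, median of the list -0.96), epicardial markers (-0.83, -0.64 and 0.27 for Upk3b, Upk1b and Wt1, median -0.80) and Schwann cell markers (0.02 for Mbp) overlapped in their sums between the genotypes. The skeletal muscle list, whose tested members include Ckm of the heart, summed to between 2398 and 3024 CPM, again with overlap. In none of these marker lists did a member pass the test in the fit of 21 mice.

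**Figure D2:**
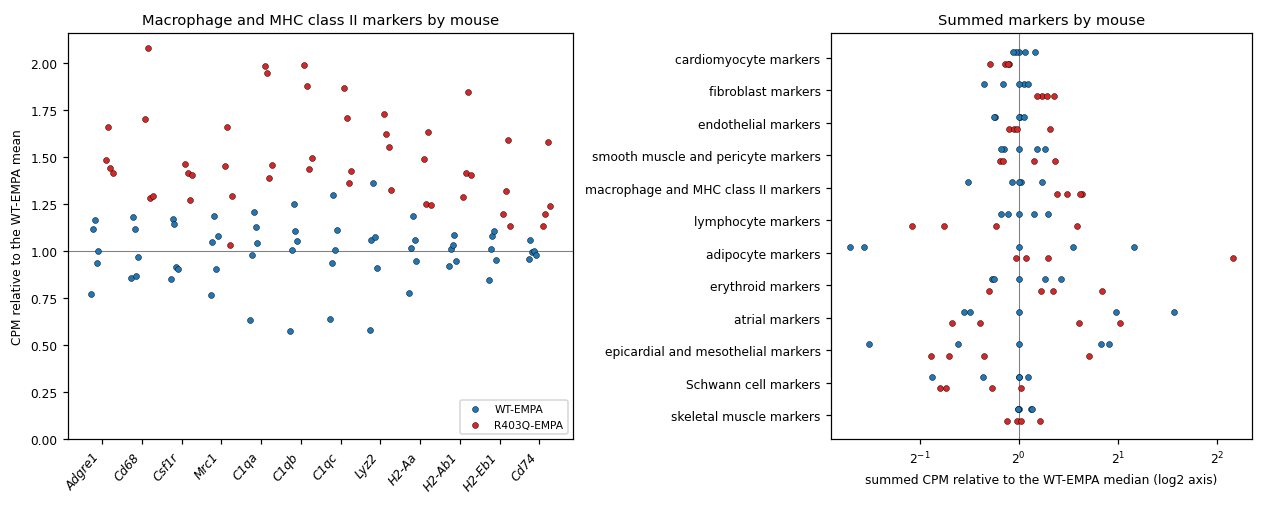
Left, CPM of each macrophage and MHC class II marker in every mouse, divided by the WT-EMPA mean of that gene; right, summed CPM of each marker list in every mouse, divided by the WT-EMPA median, on a log2 axis, with WT-EMPA in blue and R403Q-EMPA in red. The 4 R403Q-EMPA mice lay above the 5 WT-EMPA mice in the macrophage and fibroblast sums and below them in the cardiomyocyte sum, which overlapped once Myh6 was left out, and the other sums overlapped.

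Myh6 itself had 54667, 44153, 40424, 42959.6 and 43902 CPM in WT-EMPA (45221 ± 5482, mean ± SD, n = 5) and 31549, 33573, 33087 and 40980.3 CPM in R403Q-EMPA mice (34797 ± 4211, mean ± SD, n = 4). R403Q-EMPA 4 reached into the wild-type range, WT-EMPA 1 was the highest, and the log2 difference of -0.38 did not pass (SE 0.18, adjusted p = 0.333, edgeR). The counts do not tell the mutant allele from the wild-type allele, so they check neither the mutation nor the labels. Of the 143 tested genes that start within 5 Mb of Myh6 on chromosome 14, 0 passed the test in edgeR's fit of 21 mice, 2 passed in the 9 mice alone (0.739% of all genes did) and 2 without R403Q-CD 2 (1.17%), and 13 were higher (9.09%) and 14 lower (9.79%) at an unadjusted p under 0.05, against 8.14% and 6.56% of all tested genes.

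Most sarcomere and calcium handling genes had a lower level in the mutants, by small differences. Of 25 sarcomere genes, 17 had a negative difference (median -0.17) where 48.3% of all genes did. At an unadjusted p under 0.05, 5 were lower and 1 higher, and here and in the lists that follow the shares over all tested genes are 6.56% lower and 8.14% higher. Myh7 and Myh7b differed by -0.41 and -0.22 on the log2 scale, with an adjusted p of 0.243 for Myh7, the slow β-myosin of fetal and failing mouse hearts. Mylk3, which encodes the kinase of the cardiac myosin light chain, had 908, 811, 791, 727 and 839 CPM in WT-EMPA and 540.4, 583, 548 and 599 CPM in R403Q-EMPA mice. No mutant reached the wild-type range (log2 difference -0.52, adjusted p = 0.115, and 0.0340 without R403Q-CD 2, edgeR). Nebl, the gene of the Z-disc protein nebulette, differed by -0.34 (adjusted p = 0.171, and 0.0495 without R403Q-CD 2, edgeR). Both were named after their values were seen.

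Calcium handling genes had a negative difference in 16 of 20 (median -0.20), 14 were lower in both mixed cages (29.6% of all genes were), and 6 were lower and 1 higher at an unadjusted p under 0.05 (6.56% and 8.14% of all genes). Atp2a2, Pln and Sln differed by -0.32, -0.07 and -1.61, the pump that refills the sarcoplasmic reticulum and its inhibitors. Sln, which is also in the atrial marker list, had 2.69 CPM in R403Q-EMPA 2. In the other mutants it had 0.0729 to 0.164 CPM, near the level of 3 counts. Jph2, named after its values were seen, encodes junctophilin-2, which ties the reticulum to the cell membrane. It had 556, 495, 555, 573 and 513 CPM in WT-EMPA and 386, 451, 400.2 and 406 CPM in R403Q-EMPA mice, with no overlap (log2 difference -0.39, adjusted p = 0.109, and 0.0252 without R403Q-CD 2, edgeR). Camk2b, a calmodulin kinase also named after its values were seen, had 16.6, 12.3, 11.2, 11.1 and 9.94 CPM in WT-EMPA and 6.60, 8.75, 8.39 and 5.31 CPM in R403Q-EMPA mice (log2 difference -0.74, adjusted p = 0.0854, and 0.0381 without R403Q-CD 2, edgeR). The highest mutant was below the lowest wild type.

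Most ion channel and receptor genes also had a negative difference. Of 20 potassium channel genes, 16 had a negative difference (median -0.23), 5 were lower at an unadjusted p under 0.05 (6.56% of all genes), and Kcnd2, Kcnd3 and Kcnip2 differed by -0.26, -0.01 and -0.39, the subunits of the transient outward current. In the list of sodium channels, pumps and exchangers, 13 of 19 were negative (median -0.16), and Scn2b differed by 0.19. At an unadjusted p under 0.05, 6 of this list were lower and 0 higher, against 6.56% and 8.14% of all genes, and 0 passed the adjusted threshold. Slc5a2, which encodes SGLT2, was below the filter and not tested, with 0.0293, 0, 0, 0 and 0.0281 CPM in WT-EMPA and 0, 0, 0 and 0 CPM in R403Q-EMPA mice, at most 1 count in any mouse. Slc5a1, which encodes the related SGLT1 of heart muscle and gut, had 3.04, 1.81, 1.73, 1.47 and 2.50 CPM in WT-EMPA and 2.52, 1.14, 1.89 and 2.21 CPM in R403Q-EMPA mice (log2 difference -0.13, adjusted p = 0.866, edgeR), with overlapping ranges.

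In the list of adenosine, muscarinic and adrenergic receptors and their effectors, 16 of 21 were negative (median -0.18), Chrm2 fell, and Adrb1 differed by -0.27, while Adrb3 had too few counts. Adcy5, the main adenylyl cyclase of heart muscle, is named after its values were seen. It had 181, 163, 159, 181 and 201 CPM in WT-EMPA and 123, 140.1, 133 and 140.2 CPM in R403Q-EMPA mice without overlap (log2 difference -0.40, adjusted p = 0.0840, and 0.0342 without R403Q-CD 2, edgeR). In the list of pacemaker and T-type calcium channels with nodal transcription factors, 6 were positive and 3 negative. Hcn2 differed by -0.25, and Cacna1g, a T-type calcium channel named after its values were seen, by -0.64 (adjusted p = 0.127, edgeR), with a median of 0.06 over the 9 tested members of the list, which Hcn3 did not enter.

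Most genes of fuel use had small negative differences. The enzymes of mitochondrial fatty acid oxidation had a negative difference in 20 of 20 (median -0.14) where 48.3% of all genes did, and 17 were lower in both mixed cages (29.6% of all genes were). Still, 0 of them had an unadjusted p under 0.05, and 1 was lower without overlap (5%, against 3.41% of all genes). Cpt1a, Cpt1b and Slc25a20, the entry steps of long-chain fatty acids, differed by -0.18, -0.16 and -0.05. With scaling to library size alone, which shifts the median of all genes from 0.0091 to 0.061, 18 of 20 stayed negative. Genes of branched-chain amino acid breakdown had a negative difference in 20 of 23 (median -0.20), and in 9 the mutants lay wholly below the wild types, against 3.41% of all genes. At an unadjusted p under 0.05, 3 were lower and 1 higher, against 6.56% and 8.14% of all genes. Bcat1, Bcat2 and Bckdha differed by 0.27, -0.17 and -0.29. Pcca, a subunit of propionyl-CoA carboxylase named after its values were seen, was the member that passed without R403Q-CD 2 (adjusted p = 0.0490, edgeR). It had 104, 107, 103, 103 and 102 CPM in WT-EMPA and 91.5, 87.7, 82.2 and 86.9 CPM in R403Q-EMPA mice (log2 difference -0.25, adjusted p = 0.349 with all 21 mice, edgeR).

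Tricarboxylic acid cycle enzymes had a negative difference in 13 of 17 (median -0.09; 9 of 17 under scaling to library size), and Cs and Idh3a differed by -0.25 and -0.04. For the pyruvate dehydrogenase complex and its regulators the median was -0.02, with a positive sign under library size scaling, and Pdha1, Pdhb and Dlat differed by -0.15, 0.10 and -0.18. Glycolysis and glucose transport genes had a median of -0.06 with 14 of 23 negative, and Slc2a1, Slc2a4 and Hk1 differed by 0.09, -0.30 and -0.22. PPAR alpha targets were negative in 19 of 23 (median -0.12), 2 of them passed as lower in the 9 mice alone (0.337% of all genes did) and 1 without R403Q-CD 2 (0.541%), and Ppara, Ppard and Ppargc1a differed by -0.34, -0.07 and -0.48.

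In the list of ketone body use, where 4 of 6 were negative (median -0.12), Bdh1, Oxct1 and Acat1 differed by -0.31, -0.11 and -0.12, the enzymes that turn ketone bodies into acetyl-CoA. Slc16a7, named after its values were seen, encodes the carrier MCT2 for ketone bodies, pyruvate and lactate, and it went the other way. WT-EMPA mice had 14.4, 15.8, 13.6, 17.9 and 15.7 CPM and R403Q-EMPA mice 32.5, 24.3, 32.1 and 23.1 CPM, so that the lowest mutant was above the highest wild type. The log2 difference of 0.85 (SE 0.23) had an adjusted p of 0.115 in the fit of 21 mice, 0.0208 without R403Q-CD 2 and 0.00831 in the 9 mice alone (edgeR).

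Nuclear genes of the respiratory chain and the mitochondrial ribosome had a positive difference more often than a negative one, by small differences. Of 36 complex I subunits, 30 had a positive difference (median 0.17) where 51.7% of all genes did, and 28 were higher in both mixed cages (35.0% of all genes were). Only 2 of the 36 (5.56%) were higher at an unadjusted p under 0.05, where 8.14% of all genes were, and the 1 member whose genotypes did not overlap was lower. Ndufa1, Ndufa10 and Ndufa11 differed by 0.35, -0.09 and 0.27. Of 46 subunits of complexes II to V, 37 were positive (median 0.14), 9 were higher at an unadjusted p under 0.05 (8.14% of all genes), and Atp5a1, Atp5b and Atp5c1 differed by -0.14, -0.09 and 0.10. The members of these complexes whose genotypes did not overlap were 2 lower (4.35%, against 3.41% of all genes) and 0 higher. Cox7c, a small subunit of cytochrome c oxidase named after its values were seen, had 17.2, 17.9, 28.4, 24.2 and 17.6 CPM in WT-EMPA and 34.9, 27.4, 32.3 and 25.8 CPM in R403Q-EMPA mice. WT-EMPA 3 overlapped the mutants (log2 difference 0.52, adjusted p = 0.149, edgeR). Mitochondrial ribosomal protein genes were positive in 60 of 76 (median 0.12) and higher in both mixed cages in 55, and Mrpl1, Mrpl10 and Mrpl11 differed by 0.12, 0.01 and 0.10. Proteasome subunits were positive in 31 of 38 (median 0.11), and Psma1, Psma2 and Psma3 differed by 0.13, 0.18 and 0.22. None of these lists had a member that passed in any of the 3 edgeR fits (21 mice, 9 mice, and without R403Q-CD 2).

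Most matrix genes had a positive difference and varied widely between mice. Collagen chains had a positive difference in 32 of 38 (median 0.39), but 0 were higher at an unadjusted p under 0.05 and 1 was lower. Col11a1 and Col11a2 differed by 1.46 and 0.19, and Col10a1 was at 0 counts in all 9 mice. Matrix proteins, crosslinkers and profibrotic signals were positive in 27 of 35 (median 0.30), and Fn1, Postn and Tnc differed by 0.20, 1.15 and 2.43. Tnc encodes tenascin-C, which is laid down in injured and remodelling muscle. It had 0.322, 0.763, 0.531, 0.719 and 0.449 CPM in WT-EMPA and 2.22, 7.25, 1.56 and 0.806 CPM in R403Q-EMPA mice. All mutants were above all wild types, and they spread more widely among themselves, with R403Q-EMPA 2 the highest (adjusted p = 0.321, 0.0450 without R403Q-CD 2, 0.057 in the 9 mice alone and 0.197 with cage as a factor there, edgeR). Without R403Q-EMPA 2 the log2 difference of Tnc was 1.46 rather than 2.43. Postn, the periostin gene of activated fibroblasts, had 15, 37.8, 20.3, 44.6 and 14.3 CPM in WT-EMPA and 42.4, 116, 53.5 and 21.1 CPM in R403Q-EMPA mice, with overlap.

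Antioxidant and NRF2 target genes were positive in 16 of 21 (median 0.10) and 6 were higher at an unadjusted p under 0.05 (8.14% of all genes). Nfe2l2, Nqo1 and Hmox1 differed by 0.03, 0.25 and 1.08. Hmox1 encodes heme oxygenase, which frees iron from heme, and it had 63.9, 29.9, 21.4, 19 and 19.6 CPM in WT-EMPA and 75.8, 40.1, 61.6 and 83.8 CPM in R403Q-EMPA mice (log2 difference 1.08, SE 0.30, adjusted p = 0.122, edgeR). WT-EMPA 1 was far above the other wild types and within the mutant range. Gpx1, a glutathione peroxidase named after its values were seen, had 56.9, 66.9, 82, 69.2 and 72.4 CPM in WT-EMPA and 110.4, 92.6, 107 and 86.7 CPM in R403Q-EMPA mice. The genotypes did not overlap (log2 difference 0.52, adjusted p = 0.0840, and 0.0186 without R403Q-CD 2, edgeR). In the iron handling list, where 7 of 11 were positive (median 0.12), Ftl1 rose and Tfrc, the transferrin receptor, differed by -0.13.

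Interferon-stimulated genes were positive in 26 of 28 (median 0.26) and higher in both mixed cages in 20 (35.0% of all genes were), with 1 at an unadjusted p under 0.05 (8.14% of all genes). Ifit1, Ifit2 and Ifit3 differed by 0.42, 0.13 and 0.53. Cell cycle genes were positive in 18 of 21 (median 0.37), 5 at an unadjusted p under 0.05 (8.14% of all genes), and Mki67, Top2a and Ccnb1 differed by 0.58, 1.17 and 0.37. Mki67, the gene of the proliferation antigen Ki-67, had 5.06, 3.42, 4.02, 2.39 and 3.48 CPM in WT-EMPA and 5.21, 5.79, 5.44 and 5.52 CPM in R403Q-EMPA mice. The ranges did not overlap, and the adjusted p was 0.393 (edgeR).

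The remaining lists had medians between -0.10 and 0.08. For insulin and IGF signalling, with a median of -0.01 that was positive under library size scaling, Insr, Irs1 and Irs2 differed by -0.17, -0.09 and 0.03. Igf1, a growth factor gene named after its values were seen, had 13.6, 16, 20.8, 19.99 and 17.3 CPM in WT-EMPA and 27.7, 36.1, 28.6 and 23.3 CPM in R403Q-EMPA mice without overlap (log2 difference 0.72, adjusted p = 0.191, and 0.0236 without R403Q-CD 2, edgeR). In mTOR complexes and autophagy (median -0.06), Mtor, Rptor and Rictor differed by -0.06, -0.20 and -0.06. Among LXR and SREBP1c lipogenic genes (median -0.01, positive under library size scaling), Fasn and Scd1 differed by -0.34 and 0.46, and among SREBP2 targets, at a median of 0.08, Srebf2 and Hmgcs1 differed by 0.08 and -0.08. Core clock genes were negative in 15 of 19 (median -0.10), and Arntl, Clock and Npas2 differed by 0.23, -0.11 and 0.08. For glucocorticoid-responsive genes (median 0.06), Fkbp5, Tsc22d3 and Zbtb16 differed by -0.44, 0.33 and -0.56. In the integrated stress response (median 0.01), Atf3, Atf4 and Atf5 differed by -0.02, 0.02 and -0.05. Among immediate-early genes (median -0.06), Fos, Fosb and Jun differed by -1.20, -0.07 and -0.03. None of the genes in this paragraph passed the test in the fit of 21 mice.

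**Figure D3:**
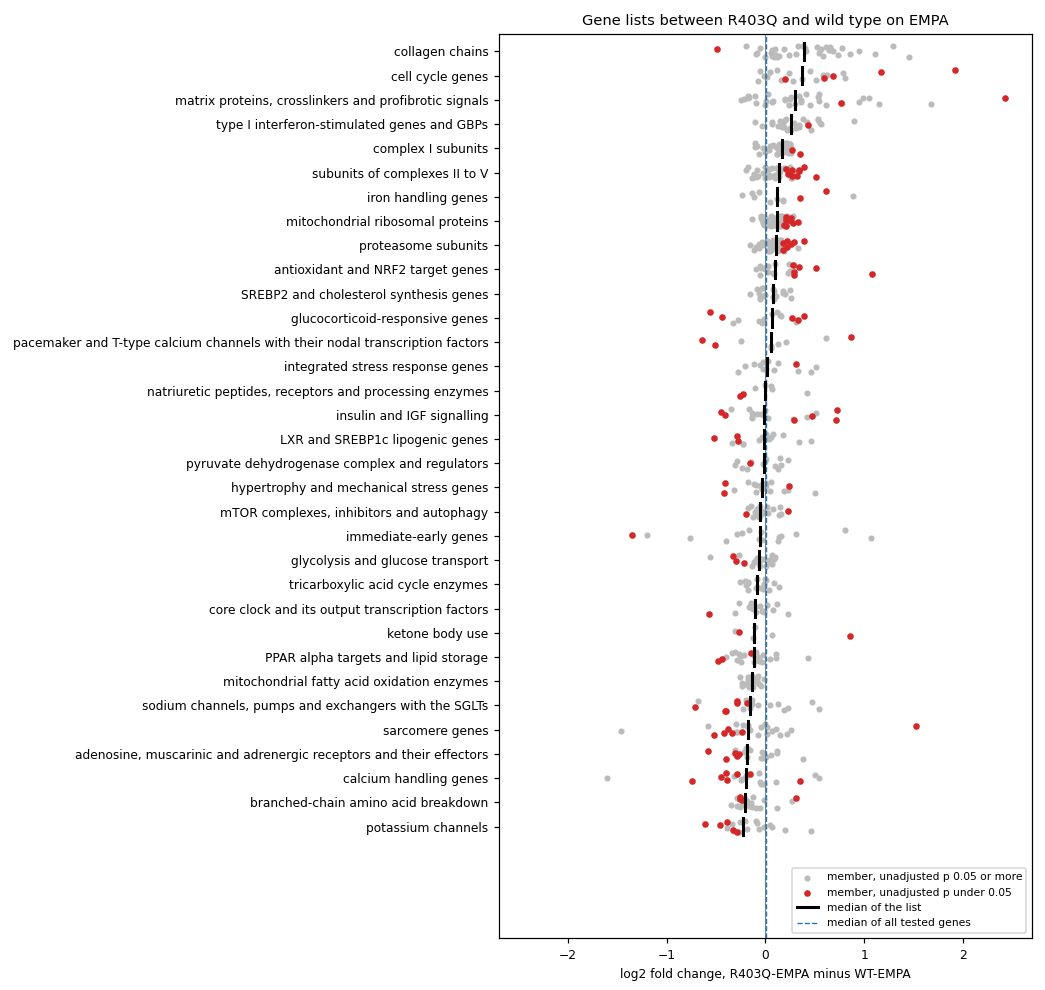
Log2 fold change of R403Q-EMPA over WT-EMPA for each tested member of the 33 gene lists; points are genes, red where the unadjusted p is under 0.05, black bars are list medians and the dashed line is the median of all tested genes (0.0091). Medians ran from -0.23 for potassium channels to 0.39 for collagen chains, and the red points are a minority in each list.

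Whether the genotype difference was the same without the drug was asked in the CD mice. There, 250 genes passed between R403Q-CD and WT-CD (1.44%), 153 higher (0.884%) and 97 lower (0.56%), and 7 of the 10 genes called on EMPA were among them, 70.0% of the EMPA calls and 2.80% of the CD calls. Without R403Q-CD 2, Chrm2 did not pass on CD (adjusted p = 0.0636, edgeR). All 10 had the same sign on CD, where 71.1% of all tested genes did. Of the 250, 244 (97.6%) had the same sign on EMPA, and 160 (64.0%) had an unadjusted p under 0.05 there, 159 of them with the same sign. The median absolute log2 difference of the 250 was 0.58 on CD, the contrast that chose them, and 0.37 on EMPA. Across all tested genes the log2 differences on the diets had a Pearson correlation of 0.45, which describes genes that share libraries and are not replicates. The number of CD calls moved with single mice, from 31 without WT-CD 3 to 1045 without R403Q-CD 3, and with the fit, from 28 in the 12 CD mice alone to 982 with DESeq2 and 1128 with cage as a factor.

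The test of the difference between diets, the genotype by diet interaction, gave 0 genes at an adjusted p under 0.05 with edgeR, 0 with DESeq2 and 0 with limma on the deposited log2 values. At an unadjusted p under 0.05 there were 567, 582 and 551 genes, respectively, and the 567 are 3.28% of those tested (1.46% with a positive interaction and 1.82% with a negative one, EMPA minus CD). The Ftl1 difference was 0.62 on EMPA and 0.33 on CD (interaction 0.29, SE 0.10, adjusted p = 0.999, edgeR), and the Jade2 difference was -0.49 and -0.11 (interaction -0.38, SE 0.12, adjusted p = 0.999, edgeR). For Sept6 the values were 0.56 and 0.54, for Epdr1 0.41 and 0.43, and for Gm35330 0.75 and 0.72. The interactions of these 3 genes were 0.02, -0.02 and 0.02, each smaller than its SE of 0.12, 0.09 and 0.16.

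**Figure D4:**
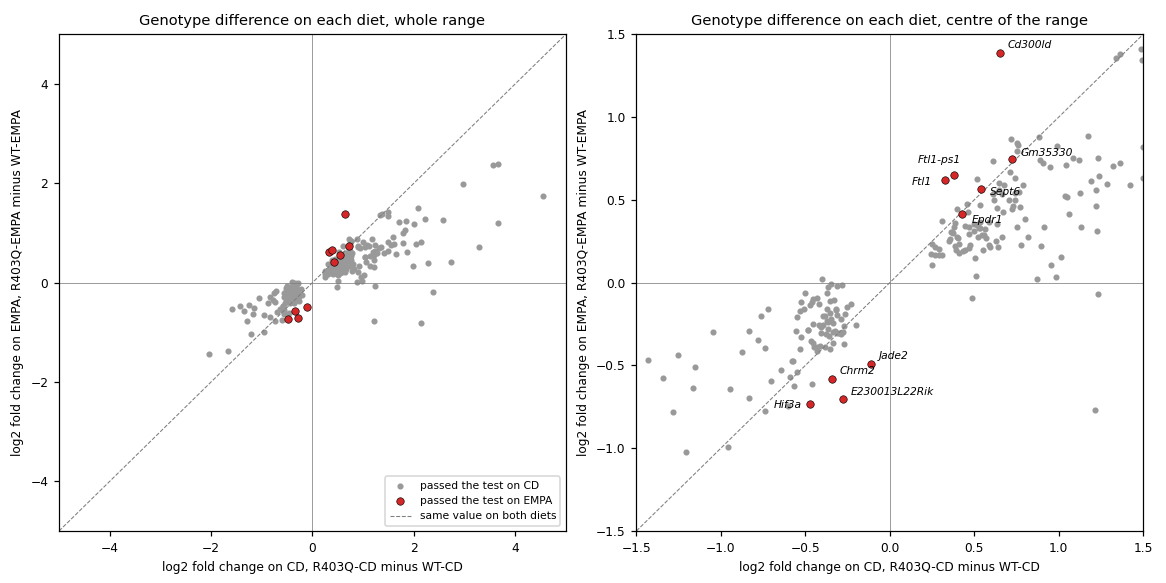
Log2 fold change of R403Q over wild type on EMPA against that on CD for the 250 genes that passed on CD (grey) and the 10 that passed on EMPA (red, named on the right); the left panel shows the whole range and the right panel its centre, and the dashed line marks equal values. Of the 250 grey genes, 244 had the same sign on both diets, and all 10 red genes did.

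The 10 genes with the smallest p-values on CD had these differences on EMPA. Sec14l5, a gene of the SEC14 family of lipid-binding proteins, differed by 0.92 on EMPA against 1.6 on CD, Htatip2 by 0.35 against 0.50, 2610028H24Rik by 1.29 against 2.22, Rp1 by 1.19 against 2.0 and 2010001K21Rik by 0.52 against 1.04. Trabd2b, an inhibitor of Wnt proteins, differed by -0.52 against -0.64, and Epdr1, Gm35330 and Sept6 passed on both diets. Without R403Q-CD 2, the EMPA differences of Sec14l5, Htatip2, 2610028H24Rik, Rp1 and Trabd2b passed as well (adjusted p = 0.0354, 0.0257, 0.0252, 0.0459 and 0.0342, edgeR). Crip3, a LIM domain gene, was the exception. It had 0.527, 0.509, 0.863, 0.431 and 0.477 CPM in WT-EMPA and 0.510, 0.388, 0.601 and 0.467 CPM in R403Q-EMPA mice, with overlap, and 0.170, 0.182, 0.482, 0.399 and 0.224 CPM in WT-CD and 0.586 at the lowest, 1.68 at the median and 2.73 at the highest CPM in R403Q-CD mice, without. Its log2 difference was -0.18 on EMPA and 2.39 on CD (interaction -2.57, SE 0.54, adjusted p = 0.912, edgeR).

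Natriuretic peptides, the classic markers of a strained heart, did not pass the test on EMPA. Of the 7 tested genes of their list, 3 were positive and 4 negative (median -0.01, positive under library size scaling). Nppa, the gene of atrial natriuretic peptide, had 359.7, 631, 746, 457 and 716 CPM in WT-EMPA and 429, 973, 1089.7 and 636 CPM in R403Q-EMPA mice. The ranges overlapped (log2 difference 0.43, SE 0.60, adjusted p = 0.763, edgeR). On CD, the WT-CD mice had 373, 499.7, 238, 595 and 463 CPM and the R403Q-CD mice 883 at the lowest, 1151 at the median and 10996 at the highest CPM, with no overlap, and Nppa rose in R403Q-CD (log2 fold change 2.73, adjusted p = 0.0248, edgeR). The 7 atrial markers had overlapping sums on CD, of 27.7 to 331 CPM (median 42.6) in WT-CD and 29.6 to 774 CPM (median 99.8) in R403Q-CD mice and a median log2 difference of 0.78, against -0.96 on EMPA. Their part in the Nppa result was not tested. The interaction of Nppa was -2.30 (SE 0.83, adjusted p = 0.999, edgeR). R403Q-CD 2 held the highest value, and without it the CD difference was 1.80 (adjusted p = 0.0158) and the interaction -1.38 (SE 0.52, adjusted p = 1.0, edgeR).

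Nppb, the gene of brain natriuretic peptide, differed by -0.01 on EMPA and 1.19 on CD, where it did not pass (adjusted p = 0.0868, edgeR). Its interaction was -1.19 (SE 0.55), and -0.79 (SE 0.42) without R403Q-CD 2. Npr2, the receptor of C-type natriuretic peptide and named after its values were seen, differed by -0.23 on EMPA (SE 0.06, adjusted p = 0.109, edgeR). Nppc, the gene of that peptide, was below the filter and was not tested, with 0, 0, 0.0332, 0.0575 and 0 CPM in WT-EMPA and 0.0365, 0.332, 0.410 and 0.0424 CPM in R403Q-EMPA mice. Of the hypertrophy genes, Acta1 and Ankrd1 differed by 0.50 and -0.10 on EMPA, and without R403Q-EMPA 2 the Acta1 difference was -0.12. Ankrd1, a mechanical stress gene of muscle, differed by 0.83 on CD, with an interaction of -0.93 (SE 0.45), and -0.60 (SE 0.33) without R403Q-CD 2.

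Nr4a3, an immediate-early gene for an orphan nuclear receptor named after its values were seen, had 5.65, 17.7, 7.17, 20.3 and 11.9 CPM in WT-EMPA and 4.08, 5.29, 5.19 and 5.14 CPM in R403Q-EMPA mice. The mutants were close together below the widely spread wild types (log2 difference -1.35, SE 0.37, adjusted p = 0.122, edgeR). On CD the difference was 0.66, and the interaction was -2.01 (SE 0.49, adjusted p = 0.999, edgeR). Hmox1 differed by 1.08 on EMPA and 0.13 on CD (interaction 0.95, SE 0.40), and Slc16a7 by 0.85 and 0.17 (interaction 0.69, SE 0.30). None of these interaction values passed the adjusted threshold, and neither did that of any other tested gene. Whether more mice would change this was not tested.

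**Figure D5:**
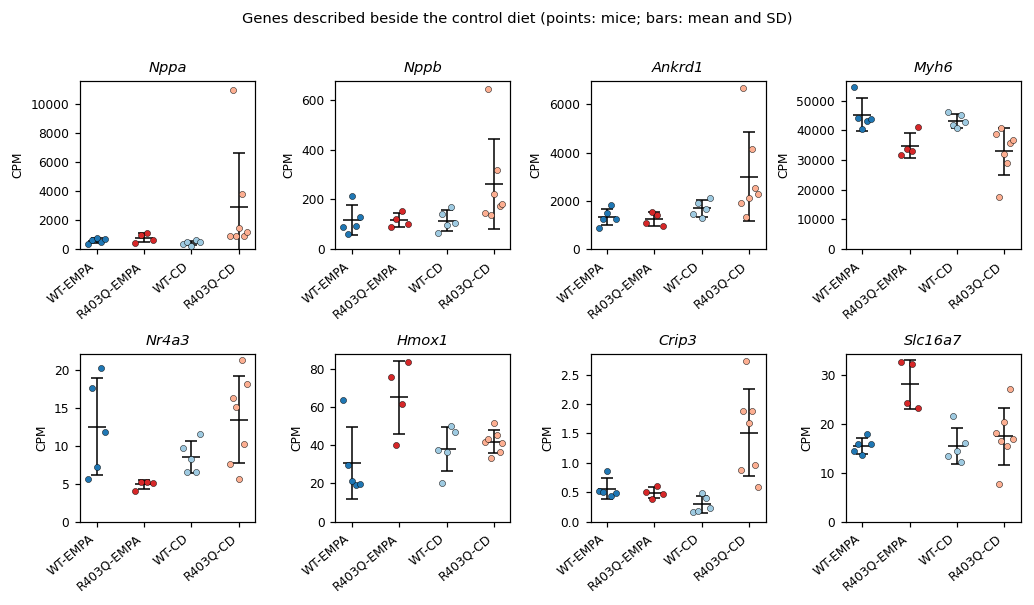
Levels in CPM in every mouse of the 4 groups for 8 genes described beside the control diet; points are mice and bars are the mean and SD. Nppa, Nppb and Ankrd1 reached high values in some R403Q-CD mice while R403Q-EMPA mice overlapped WT-EMPA mice, and Slc16a7 was higher in the 4 R403Q-EMPA mice than in the 5 WT-EMPA mice.

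Lists set side by side on the diets showed like medians for some and unlike medians for others. The macrophage and MHC class II markers had a median of 0.58 on EMPA and 0.56 on CD, and the fibroblast markers 0.45 and 0.47. Collagen chains had 0.39 on EMPA and 0.74 on CD, interferon-stimulated genes 0.26 and 0.53, and hypertrophy genes -0.04 and 0.27 (0.01 on EMPA under library size scaling). Fatty acid oxidation enzymes had -0.14 on EMPA and -0.22 on CD, and branched-chain amino acid genes -0.20 and -0.31. Complex I subunits had 0.17 on EMPA and -0.04 on CD, and mitochondrial ribosomal proteins 0.12 and -0.05. Over all tested genes the medians were 0.0091 on EMPA and 0.011 on CD. Epicardial and mesothelial markers had medians of -0.80 on EMPA and 1.54 on CD, where all 5 were positive, and 3 of the 5 had an unadjusted interaction p under 0.05 with a negative sign (1.82% of all genes did). Their part in the collagen medians was not tested. No list median was tested between diets. Among single members, 8 of 76 mitochondrial ribosomal protein genes had an unadjusted interaction p under 0.05 with a positive sign, where 1.46% of all genes did. Mrps18a, named after its values were seen, differed by 0.21 on EMPA and -0.14 on CD (interaction 0.35, SE 0.12, adjusted p = 0.999, edgeR).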

How the data were processed

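Left ventricular RNA of 21 mice was sequenced, and 9 mice on EMPA entered the comparison described. The authors aligned reads to mm10 with STAR 2.6.0c and deposited raw counts of uniquely aligned proper read pairs per Ensembl gene, made with featureCounts of Subread 1.6.2 without mitochondrial genes. Per the study's methods, reads were counted on the strand of the gene. The authors also deposited variance-stabilized values from DESeq2 1.32.0, which lie on a log2 scale and served as an alternative. Totals were 23491535 to 36673833 counts per mouse on EMPA. Values are CPM, scaled by TMM factors, and the level of 3 counts covers counting error only.

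Genes were filtered with filterByExpr (minimum count 10), and the 4 groups were fitted together by edgeR 4.0.16 (quasi-likelihood F test) in R 4.3.3, with p-values adjusted by Benjamini-Hochberg over 17309 genes. Groups came from the labels, and replicate numbers follow accession order. Each library was a separate mouse. The study's methods name 3 groups for this experiment, and WT-EMPA was taken from the labels. Alternatives used DESeq2 1.42.0, limma 3.58.1 on the deposited log2 values, library size scaling, no filter, the EMPA mice alone, cage (as labelled) as a factor or random effect, and fits without each mouse. Fits without R403Q-CD 2, and without R403Q-CD 2 and 5, were chosen after seeing the data. The tests were tested on simulated data. Sequences were read from GRCm38, the build that mm10 names.

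The members and gene lists were chosen with earlier results of these data known. Genes were named by rule: the 12 genes with the smallest p-values in each direction among those that passed, filled up to 5 where fewer passed and leaving out provisional names, list members that passed, Myh6, Slc5a1, Slc5a2, the first 3 genes of each list, and the 10 genes with the smallest p-values on CD. Other genes are said to be named after their values were seen. Some genes that the rule names are not reported here.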

Additional observations from a re-analysis of the deposited data

Results flagged for a closer look

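Of 346 tests of a group's extreme mouse against the other mice of that group (Dixon's ratio), 23 passed the critical value, where chance gives about 1 in 20. R403Q-EMPA 1 held the highest adipocyte marker sum of its group at 25.7 CPM, where the other mutants had 5.64 to 7.11 CPM, with Adipoq at 5.54 CPM, Cidec at 5.98 CPM, Plin1 at 3.06 CPM and the lipogenic gene Scd1 at 52.7 CPM. WT-EMPA 4 was the highest wild type for Plin1 at 2.24 CPM and Scd1 at 39.5 CPM. R403Q-EMPA 1 also had the highest Atp5b of its group, at 5994 CPM, and the lowest Hcn2 at 12.7 CPM, Hif3a at 11.1 CPM and Nr4a3 at 4.08 CPM.

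R403Q-EMPA 2 had the highest level of the atrial genes Myl7 and Sln in its group, at 12.3 and 2.69 CPM, the highest Bcat1 at 2.91 CPM, and the lowest Cdh5 at 153 CPM and Ftl1 at 154 CPM. Pecam1 reached 325 CPM in R403Q-EMPA 3 and Rictor 46.6 CPM in R403Q-EMPA 4. Among the wild types, WT-EMPA 1 was the highest for Hmox1 at 63.9 CPM and Myh6 at 54667 CPM, WT-EMPA 3 for Crip3 at 0.863 CPM, and WT-EMPA 5 for Chrm2 at 231 CPM. WT-EMPA 3 had the lowest total of its group, 30558067 counts. No explanation of these values was tested.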

How the results depend on the processing

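The count of 10 genes on EMPA became 304 with DESeq2, 123 in the 9 EMPA mice alone, 110 with voom and cage as a random effect, and 75 in the 6 mice of the mixed cages. It became 6 in the 9 mice with cage as a factor and 0 with cage as a factor in 21 mice. Without R403Q-CD 2 it was 201, and 330 without R403Q-CD 2 and 5. Leaving out 1 mouse gave 1 to 64, and the other alternatives gave 8 to 13. The 250 genes on CD became 982 with DESeq2, 1128 with cage as a factor, 28 in the 12 CD mice alone and 103 without R403Q-CD 2 and 5, and 31 to 1045 when 1 mouse was left out. The cause of these shifts was not tested. The interaction stayed at 0 in each alternative run, and the share of EMPA calls with the same sign on CD stayed between 97.3% and 100%. With cage as a factor in 21 mice nothing was called on EMPA, so that share has no value there.

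The 10 genes kept their direction in all 200 alternatives and passed in 137 of them, with adjusted p-values up to 0.31. Replicate numbers follow accession order and pair no mice, so no replicate block was fitted, and the blocks used were the cage labels. None of the 10 genes passed in the 9 mice with cage as a factor, with log2 differences there of 0.69 for Ftl1, -0.66 for Chrm2 and 1.26 for Cd300ld. Slc5a2, with at most 1 count in each EMPA mouse, was beyond the depth of these libraries.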
